A study of Homo sapiens with 6 samples.

Results

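BNIP3, BNIP3L, FAM162A, FUNDC1 and PINK1 are nuclear genes whose products act at mitochondria, and all but FAM162A are known for roles in mitophagy. They were described here in bevacizumab-treated and control human glioblastoma xenografts. The 5 genes were taken by symbol, through every probe set that the array annotation assigns to 1 of these symbols alone, which gave 12 of the 54675 probe sets in the table and 5 of the 19775 genes measured. The samples came from subcutaneous xenografts of U87-EV, a line derived from the established human glioblastoma line U87; the labels do not say what EV stands for. The treated group held 3 tumour samples from mice given bevacizumab, an antibody that neutralises human VEGFA, injected intraperitoneally at 10 mg/kg with doses 3 days apart. The control group held 3 tumour samples from mice given saline. In both groups the hosts were female BALB/c SCID mice, which lack T and B cells, aged 6 to 8 weeks when the cells were implanted in Matrigel. Dosing started at a tumour volume of 150 to 200 mm3 with 5 mice per group and ended at a diameter of about 15 to 30 mm, so the tumours were those of a 1-line subcutaneous model and had grown under treatment. Each sample was read on 1 array of human probes, and the labels do not say that the arrays came from separate mice, so the error behind each p-value is that between arrays and could be technical in part.

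Mitophagy is the removal of damaged or surplus mitochondria by autophagy. In one route a receptor in the outer mitochondrial membrane, such as BNIP3, BNIP3L (also called NIX) or FUNDC1, binds ATG8-type proteins on the growing autophagosome through a short motif. In another the kinase PINK1 builds up on depolarised mitochondria and marks their proteins with phospho-ubiquitin, which recruits ubiquitin-binding adaptors. BNIP3 and BNIP3L are known targets of hypoxia-inducible factors, while FUNDC1 is known to be controlled in hypoxia through phosphorylation of the protein. FAM162A, also known as HGTD-P, is a hypoxia-induced mitochondrial protein linked to cell death rather than an established mitophagy receptor, and PINK1 is a kinase, so the name mitophagy receptor holds only for BNIP3, BNIP3L and FUNDC1.

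After bevacizumab 4 of the 5 genes rose. BNIP3 rose 3.41-fold, BNIP3L 2.46-fold, FAM162A 2.08-fold and PINK1 1.76-fold, each with 3 arrays per group, all bevacizumab arrays above all controls and an adjusted p under 0.05 (limma). FUNDC1 did not pass the threshold, with a difference of 0.05 on the log2 scale (SE 0.09, 95% interval -0.16 to 0.26). In the fit across all 10233 genes bright enough to test, 9.09% were called higher after bevacizumab, 9.97% were called lower and 19.1% were called in either direction. The groups did not overlap in 41.0% of those genes, and in 19.0% all bevacizumab arrays were the higher ones. The members were chosen with earlier results of these data known, so their count is not independent support for any direction.

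The promoters of BNIP3, FAM162A and FUNDC1 are shown so that the sequence before 2 of the 4 genes that rose can be read beside that of the gene that did not pass. The promoters of BNIP3L and PINK1, which also rose, were not analysed here, so the 3 windows are not a comparison of genes that rose with genes that did not. They are the 250 bases before the annotated gene start, from RefSeq on GRCh38.p14, printed 5′ to 3′ on the gene's own strand. Capitals mark ACGTG on either strand, the core letters of the site that hypoxia-inducible factors are known to bind. The windows lie at chr10:131981924-131982173 (minus strand) for BNIP3, chr3:122383932-122384181 (plus strand) for FAM162A and chrX:44542860-44543109 (minus strand) for FUNDC1.
BNIP3: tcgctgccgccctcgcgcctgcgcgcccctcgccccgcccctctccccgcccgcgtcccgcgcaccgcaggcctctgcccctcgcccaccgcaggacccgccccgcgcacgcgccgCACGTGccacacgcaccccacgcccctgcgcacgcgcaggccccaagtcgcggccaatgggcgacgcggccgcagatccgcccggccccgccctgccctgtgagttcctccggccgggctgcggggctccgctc
FAM162A: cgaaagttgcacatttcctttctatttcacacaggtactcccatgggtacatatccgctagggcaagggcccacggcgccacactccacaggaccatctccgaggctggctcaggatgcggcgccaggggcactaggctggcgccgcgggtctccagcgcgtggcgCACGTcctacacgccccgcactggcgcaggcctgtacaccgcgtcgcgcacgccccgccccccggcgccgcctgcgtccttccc
FUNDC1: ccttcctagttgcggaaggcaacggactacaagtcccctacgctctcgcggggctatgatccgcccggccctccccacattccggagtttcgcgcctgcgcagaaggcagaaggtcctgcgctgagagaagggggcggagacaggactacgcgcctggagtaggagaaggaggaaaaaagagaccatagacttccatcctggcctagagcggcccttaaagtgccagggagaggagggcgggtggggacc
In the BNIP3 window ACGTG was found 2 times, once on each strand, and the matches overlap in the palindrome CACGTG at bases -134 to -129 from the start. In the FAM162A window it was found once, on the minus strand at bases -84 to -80. The FUNDC1 window held no ACGTG, which says only that these letters are not in these bases. Of 27305 RefSeq promoters searched over the same 250 bases on both strands, 18.7% held ACGTG and 6.49% held CACGTG. The related core GCGTG occurred 4 times in the BNIP3 window, 3 times in the FAM162A window and not in that of FUNDC1. Of all promoters 31.9% held it at least once, 3.17% at least 3 times and 1.11% at least 4 times. Base composition differs between the windows, with 81.6% G and C for BNIP3, 68.4% for FAM162A and 62.4% for FUNDC1, against a median of 58% over all promoters. Among promoters with at least 60% G and C, 22.6% held ACGTG. Only 1.93% of all promoters had at least the G and C share of BNIP3, so none of these shares is matched to the composition of its window. A match is a description of the sequence and was not tested as a binding site.

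BNIP3, an outer membrane receptor of the BCL2 family's BH3-only type, changed most of the 5 by the brightest probe set of each gene. The dimmer FAM162A probe set 235850_at changed more, by 2.21. On the brighter BNIP3 probe set, 201849_at, the log2 values were 13.46, 13.46 and 13.75 in bevacizumab tumours, against 11.27, 11.81 and 12.27 in control tumours. The treated arrays lay within 0.29 log2 units of each other and the controls spread over 1.00, with control 1 lowest and control 3 highest, and a gap of 1.19 separated the groups. The log2 fold change was 1.77 (SE 0.26, limma adjusted p = 0.00943, n = 3 each), rank 165 of the 10233 genes from the highest down. The second probe set, 201848_s_at, read 12.09, 12.22 and 12.65 in bevacizumab tumours and 9.58, 10.21 and 10.81 in control tumours. It showed the same order of arrays and a log2 fold change of 2.12 (SE 0.33, adjusted p = 0.0143 over all probe sets). BNIP3 passed the threshold without any 1 of the 6 arrays, with values between 1.51 and 2.01. RefSeq names 46 BNIP3 pseudogenes, 33 of them on chromosome 19, and whether their transcripts reach these probe sets was not tested.

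BNIP3L, the closest relative of BNIP3 and the receptor known for clearing mitochondria from maturing red blood cells, had the smallest SE relative to its change. Its brighter probe set, 221478_at, read 13.80, 13.79 and 14.04 in bevacizumab tumours, against 12.38, 12.62 and 12.74 in control tumours. Neither group spread over more than 0.36, and the gap between them was 1.05. The log2 fold change was 1.30 (SE 0.13, limma adjusted p = 0.00424, n = 3 each), and 1.20 to 1.38 with 1 array left out, past the threshold each time. The other probe set, 221479_s_at, read 11.98, 11.93 and 12.22 in bevacizumab tumours and 10.73, 10.45 and 10.70 in control tumours, a change of 1.42 (SE 0.13, adjusted p = 0.0041 over all probe sets). Since BNIP3L is abundant in erythroid cells, red blood cell markers are set beside it. The blood cells of these tumours were those of the mouse hosts and the probes are human. The marker values therefore cannot show how much blood the samples held. All 5 of those with a probe set (HBB, ALAS2, SLC4A1, AHSP and EPB42) were too dim to test, ALAS2 and EPB42 sat at the table's lowest value on all 6 arrays, and their summed level on the log2 scale was 4.79 to 4.96 in bevacizumab tumours and 4.98 to 5.65 in control tumours.

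FAM162A had 5 probe sets, which fell into 3 kinds. The 3 bright ones, whose names end in _x_at, a suffix the manufacturer gives to sets with probes that may match other transcripts, moved almost as one, with log2 fold changes of 1.05, 1.06 and 1.06. The brightest, 224345_x_at, read 12.40, 12.72 and 12.85 in bevacizumab tumours, against 11.27, 11.64 and 11.90 in control tumours. The groups were 0.49 apart at their nearest, with bevacizumab 1 and control 3 the arrays facing each other (log2 fold change 1.05, SE 0.20, limma adjusted p = 0.0191, n = 3 each). The dimmer probe set 235850_at read 6.98, 7.57 and 7.82 in bevacizumab tumours and 4.82, 5.52 and 5.40 in control tumours, a change of 2.21 (SE 0.28, adjusted p = 0.00905 over all probe sets). That is 1.16 above the change of the brightest set, with 95% intervals of 1.52 to 2.89 and 0.56 to 1.55. Both sets were read on the same arrays, so the slight overlap of these intervals does not show equal changes. The difference between the sets within arrays was not tested. The fifth, 221533_at, stayed between 2.23 and 2.29 on all arrays, at or next to the lowest value of the table, and was not tested. The call of FAM162A on its brightest probe set was lost without bevacizumab 2 (1.02, adjusted p = 0.0649), bevacizumab 3 (0.96, 0.0517), control 1 (0.88, 0.0582) or control 2 (1.07, 0.0695).

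PINK1, the kinase of the ubiquitin route, rose least of the 4. Its brighter probe set, 209019_s_at, read 8.55, 9.14 and 9.20 in bevacizumab tumours, against 8.04, 8.27 and 8.12 in control tumours. Here the spread lay in the treated group, at 0.65 against 0.23 among controls, with bevacizumab 1 only 0.28 above the highest control. The log2 fold change was 0.82 (SE 0.19, limma adjusted p = 0.0337, n = 3 each). The probe set 209018_s_at read 7.34, 7.66 and 8.09 in bevacizumab tumours and 6.89, 6.86 and 6.55 in control tumours, a change of 0.93 (SE 0.21, adjusted p = 0.0376 over all probe sets). The call was lost without bevacizumab 2 (0.73, adjusted p = 0.0965), bevacizumab 3 (0.70, 0.0798), control 1 (0.77, 0.114), control 2 (0.88, 0.0856) or control 3 (0.81, 0.0961), and was held only without bevacizumab 1 (1.02, adjusted p = 0.00881).

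FUNDC1, the receptor that is dephosphorylated in hypoxia, read 10.40, 10.49 and 10.42 in bevacizumab tumours on its single probe set, 235346_at, against 10.34, 10.34 and 10.49 in control tumours. The groups overlapped, all 6 arrays lay within 0.15 log2 units, and the adjusted p was 0.705 (limma, n = 3 each). The 95% interval of the difference does not reach the change of any of the other 4 genes.

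**Figure D1:**
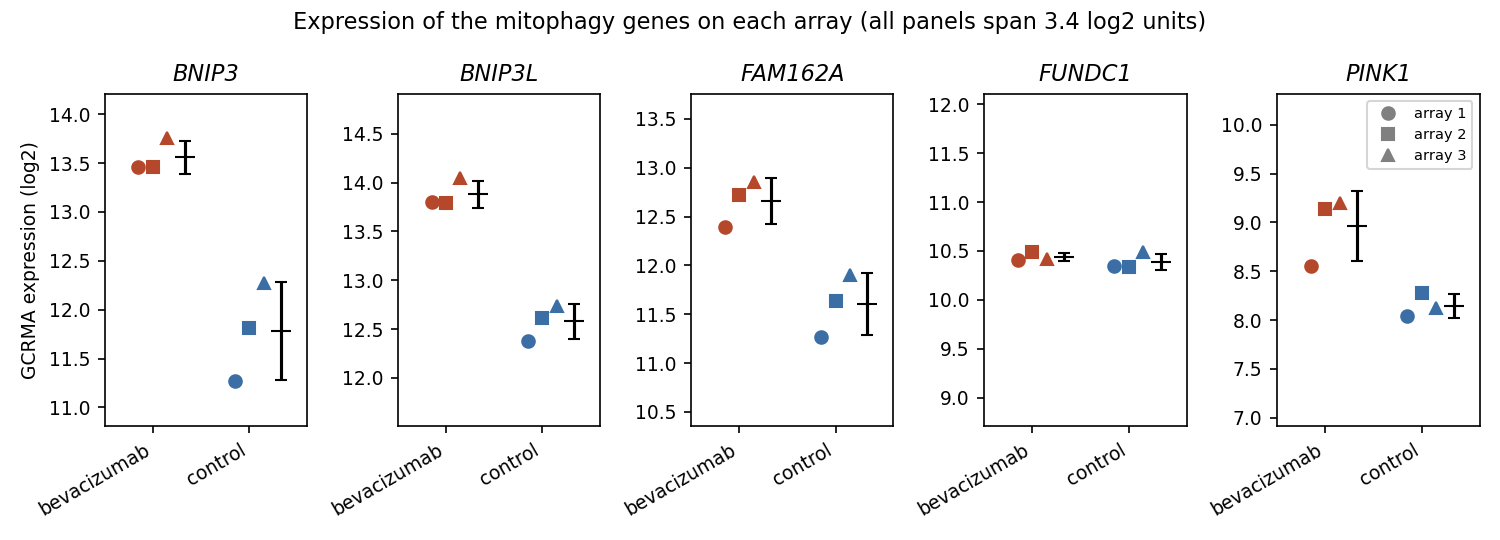
GCRMA log2 expression of the 5 genes on each array (y axis; each panel has its own offset but the same span), with bevacizumab arrays in red on the left and control arrays in blue on the right; the black bars are mean ± SD of 3 arrays. BNIP3, BNIP3L, FAM162A and PINK1 have all bevacizumab arrays above all controls, and the FUNDC1 groups overlap.

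Over the probe sets, 10 of the 11 bright enough to test were called higher, among 18469 probe sets of which 7.46% were called higher and 15.4% were called in either direction. The 1 that was not called is that of FUNDC1. Probe sets of 1 gene read the same RNA and are not replicates. Within BNIP3, BNIP3L and PINK1 the dimmer probe set had the larger change, by 0.35, 0.12 and 0.11 on the log2 scale, and the intervals of the paired sets overlapped. Those intervals ignore that both sets of a gene were read on the same arrays, so their overlap does not show equal changes.

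**Figure D2:**
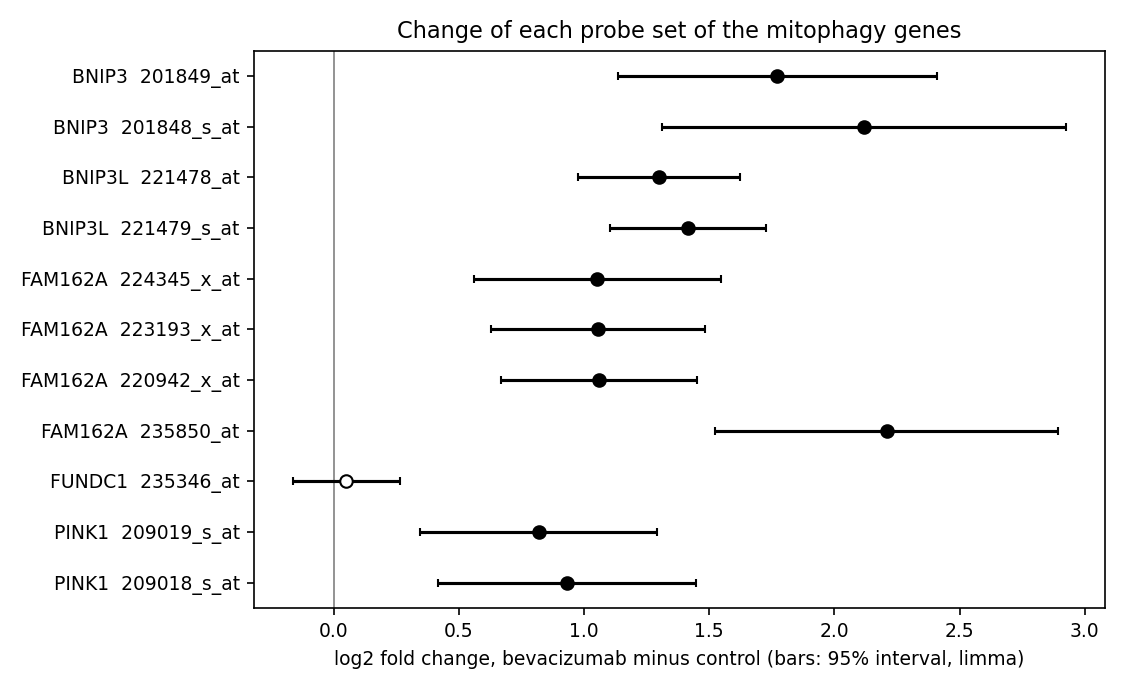
Log2 fold change, bevacizumab minus control (x axis), of the 11 tested probe sets of the 5 genes (rows), with 95% intervals from limma; filled points passed an adjusted p of 0.05 over all probe sets. The changes run from 0.05 for FUNDC1 to 2.21 for 235850_at of FAM162A.

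Whether the members changed by different amounts was compared within arrays, as the log2 difference between 2 genes on the same array, for all 10 pairs. Each gene was read on its brightest probe set. The order of BNIP3 and FAM162A does not hold for the dimmer FAM162A probe set 235850_at, which changed by 2.21. The log2 fold change of BNIP3 exceeded that of BNIP3L by 0.47 (SE 0.19), that of FAM162A by 0.72 (SE 0.14), that of PINK1 by 0.95 (SE 0.32) and that of FUNDC1 by 1.72 (SE 0.27). The groups of arrays did not overlap in any of these 4 contrasts. The exact permutation p of each was 0.1, the smallest that 3 arrays against 3 can give, and 0.125 after Benjamini-Hochberg adjustment over the 10 pairs, so none can pass. BNIP3 minus BNIP3L was -0.34, -0.33 and -0.29 on the bevacizumab arrays and -1.11, -0.80 and -0.47 on the control arrays, a narrow treated group beside a wide control group. With 1 array left out this difference was 0.31 to 0.63. BNIP3L and FAM162A differed by 0.25 (SE 0.13, exact permutation p = 0.2) and FAM162A and PINK1 by 0.24 (SE 0.18, exact permutation p = 0.3), with overlapping groups in each. BNIP3L exceeded FUNDC1 by 1.25 (SE 0.12) and PINK1 by 0.48 (SE 0.20), FAM162A exceeded FUNDC1 by 1.00 (SE 0.20), and FUNDC1 minus PINK1 gave -0.77 (SE 0.21), each without overlap between the groups and with an exact permutation p of 0.1.

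The genes whose values over the 6 arrays lay nearest to each member were found by the root mean square difference of the centred log2 values. These values were not scaled, so nearness depends on the size of the change as well as on the order of the arrays. For BNIP3 they were PDK1 (0.15), which encodes an inhibitor of pyruvate dehydrogenase, SAMD4A (0.17) and ERO1A (0.19), an oxidase of the endoplasmic reticulum. For BNIP3L they were SHC3 (0.05), TIFA (0.07) and INSIG2 (0.08), for FAM162A the noncoding SBF2-AS1 (0.05), DUSP16 (0.09) and MLF1 (0.09), and for PINK1 they were LRRC42 (0.06), RAB33B (0.06) and TBC1D17 (0.07). FUNDC1 lay nearest to PIH1D1 (0.02) and the ribosomal protein genes RPL22 (0.03) and RPL37 (0.03). By this measure the members were not each other's nearest genes, which does not show that their order over the arrays differed. FAM162A ranked 51st and BNIP3 ranked 284th in nearness to BNIP3L.

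The other genes of the pathway gave calls in both directions. Of 95 tested genes on 9 lists, each counted once, 10 were called higher and 6 lower, which is 10.5% and 6.32% of them, beside 9.09% and 9.97% of all tested genes. Their median log2 fold change was 0.01, beside -0.01 over all tested genes. The lists were chosen with results of these data known, and their counts are a description. Of the 16 calls, 4 were held without the filter on dim genes, 4 with the 18S signal as a covariate, 4 with the replicate block and none with the 3′ minus 5′ difference of the ACTB control probe sets as a covariate.

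Among the proteins that mitophagy receptors bind, 2 of 6 ATG8 family genes rose and none fell (list median 0.32). The shares over all tested genes were 9.09% called higher and 9.97% called lower. GABARAPL1, an ATG8 protein of the autophagosome membrane, read 7.80, 7.75 and 8.38 in bevacizumab tumours and 6.73, 6.61 and 6.59 in control tumours, a change of 1.34 (SE 0.18, limma adjusted p = 0.00844). MAP1LC3B, which encodes LC3B, rose by 0.48 (adjusted p = 0.0227), a call lost without bevacizumab 2 or any 1 of the controls. MAP1LC3A (0.39, adjusted p = 0.36) and GABARAP (0.25, adjusted p = 0.243) did not pass. None of the 8 tested genes on the list of other mitophagy receptors and related genes passed in either direction (limma, median -0.01). At an unadjusted p under 0.05 none was higher and 1 was lower, beside 17.3% higher and 18.5% lower of all tested genes at that p. The largest differences among them were 0.63 for FKBP8 (adjusted p = 0.254) and -0.28 for NIPSNAP2 (adjusted p = 0.107).

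Of 14 tested genes around PINK1 none rose and 1 fell, and 1 was higher at an unadjusted p under 0.05 (median 0.05). Over all tested genes 9.09% were called higher and 9.97% lower, and 17.3% were higher at that unadjusted p. TOMM22, a receptor of the import pore in the outer membrane, read 8.24, 8.30 and 8.28 in bevacizumab tumours, against 9.12, 8.88 and 9.22 in control tumours, and fell by 0.80 (SE 0.11, adjusted p = 0.00859), past the threshold without any 1 of the arrays but not with the ACTB covariate (-0.88, adjusted p = 0.0814). TOMM20, its neighbour in the pore, had a difference of 0.38 that did not pass (adjusted p = 0.132), and FBXO7 one of 0.25 (adjusted p = 0.234). Of 5 adaptors that carry ubiquitin-marked cargo to autophagosomes, 2 rose and none fell (median 0.22), beside the same 9.09% and 9.97%. OPTN, the adaptor optineurin, read 10.09, 10.30 and 10.64 in bevacizumab tumours and 9.09, 9.21 and 9.17 in control tumours, a change of 1.19 (SE 0.15, limma adjusted p = 0.00714). SQSTM1, which encodes p62, rose by 0.58 (adjusted p = 0.0323), a call held only without bevacizumab 1 when 1 array was left out. CALCOCO2 had a difference of 0.22 (adjusted p = 0.191) and TAX1BP1 of -0.04 (adjusted p = 0.818).

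Among 13 tested genes that act on the receptors or their transcription, 3 rose and none fell (median 0.25). Of all tested genes 9.09% were called higher and 9.97% lower. EPAS1, which encodes the hypoxia-inducible factor subunit HIF-2 alpha, read 11.93, 11.74 and 11.88 in bevacizumab tumours and 10.22, 10.36 and 10.48 in control tumours, a change of 1.49 (SE 0.11, limma adjusted p = 0.00196). EPAS1, like GABARAPL1 and OPTN, passed without any 1 of the arrays. With the ACTB covariate none of the 3 passed, at 1.34 for EPAS1 (adjusted p = 0.0547), 1.65 for GABARAPL1 (adjusted p = 0.062) and 1.35 for OPTN (adjusted p = 0.0683). Its other 2 probe sets were too dim to test. HIF1A, the HIF-1 alpha gene, differed by 0.30 with groups that did not overlap and did not pass (adjusted p = 0.0817). FBXL4, part of a ligase complex that limits BNIP3 and BNIP3L protein, rose by 0.44 (adjusted p = 0.0399), a call lost without any 1 of the 6 arrays. FOXO3, a transcription factor known to act on Bnip3 in mouse muscle, rose by 0.47 (adjusted p = 0.0446), a call held only without bevacizumab 3. PPTC7, a phosphatase in the same turnover of BNIP3 and BNIP3L, had a difference of 0.43 (adjusted p = 0.052), and ULK1, the kinase that starts autophagy, 1.26 with an SE of 0.47 (adjusted p = 0.111). ULK1 overlapped between the groups through bevacizumab 1, at 4.41 against 6.21 and 6.02 on the other treated arrays and 4.17 to 4.42 in controls.

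Autophagosome formation genes were mostly not called, with 2 of 24 tested higher and 1 lower (median -0.05). The shares over all tested genes, for this list and the next, were 9.09% higher and 9.97% lower. RB1CC1, a scaffold of the ULK1 complex also called FIP200, rose by 0.50 (SE 0.09, limma adjusted p = 0.0186) and ATG14, a subunit of the autophagy lipid kinase, by 0.71 (adjusted p = 0.0254). The processing protease gene ATG4A fell by 0.48 (adjusted p = 0.0348). RB1CC1 and ATG14 lost their calls without bevacizumab 2 or any 1 of the controls, and ATG4A without any 1 of the arrays. ATG10 had a difference of 0.63 that did not pass (adjusted p = 0.127). Of 9 tested fission and fusion genes 1 rose, MTFP1, an inner membrane protein that promotes fission, by 0.91 (adjusted p = 0.0329), a call lost without any 1 of the controls, and none fell. DNM1L, the fission GTPase, had a difference of -0.18 (adjusted p = 0.21), and MTFR1 of -0.12 (adjusted p = 0.596).

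Mitochondrial mass and biogenesis genes gave calls in 1 direction, with 4 of 14 tested lower and none higher (median -0.23, beside 9.97% called lower over all genes). At an unadjusted p under 0.05, 7 were lower and 2 higher, beside 18.5% lower and 17.3% higher of all tested genes. The 4 lower calls became 0 without the filter on dim genes, with the ACTB covariate, with the 18S covariate or with the replicate block, and 1 with the mean of all probe sets of a gene. TFAM, which packages mitochondrial DNA and helps start its transcription, fell by 0.67 (SE 0.12, limma adjusted p = 0.0177). It read 9.84, 9.66 and 9.50 in bevacizumab tumours, against 10.22, 10.31 and 10.46 in control tumours. TFB2M, TFB1M and the outer membrane channel gene VDAC3 fell by 0.51, 0.48 and 0.47 (adjusted p = 0.0264, 0.0346 and 0.0477). TFAM and TFB2M lost their calls without bevacizumab 2 or any 1 of the controls, and TFB1M and VDAC3 kept theirs only without bevacizumab 1. POLRMT had a difference of 0.71 (adjusted p = 0.0659) and HSPA9 of -0.39 (adjusted p = 0.076). None of 5 tested BH3-only and BAX or BAK genes passed in either direction (limma), with 1 higher and 1 lower at an unadjusted p under 0.05; the differences were -0.55 for BAX (adjusted p = 0.122) and -0.46 for BCL2L11 (adjusted p = 0.255).

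**Figure D3:**
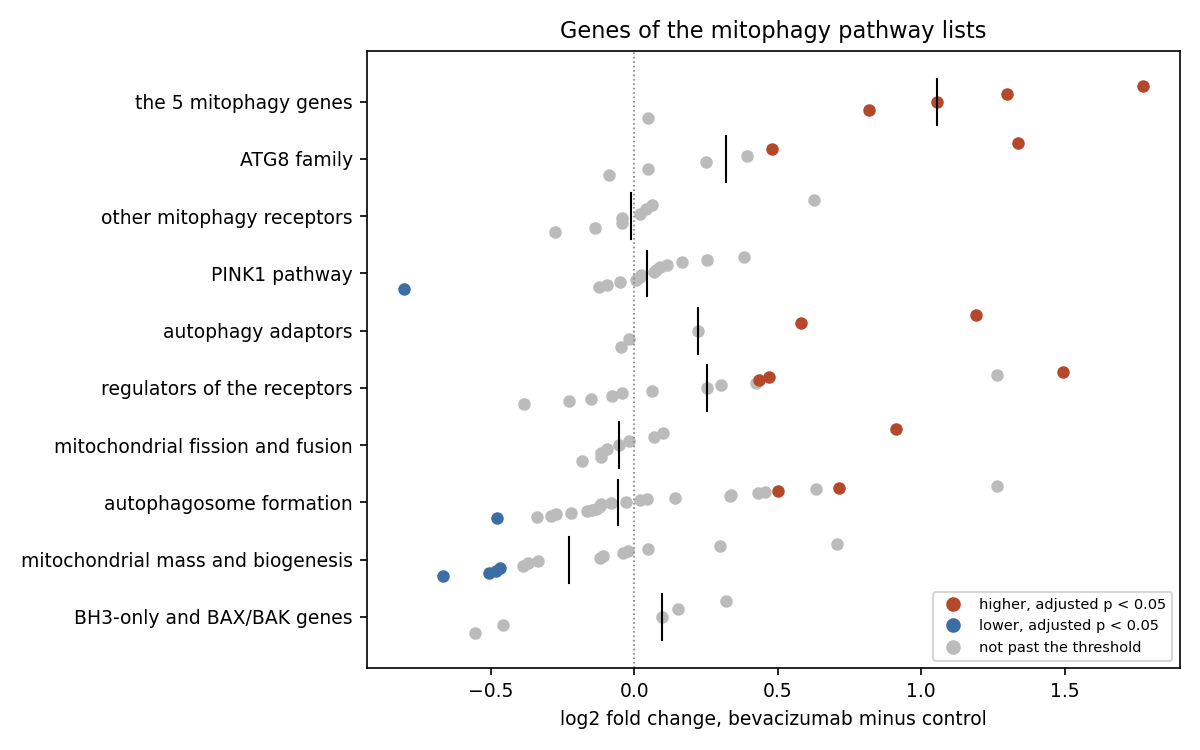
Log2 fold change, bevacizumab minus control (x axis), of each tested gene of the 5 mitophagy genes and the 9 pathway lists (rows); red and blue points passed an adjusted p of 0.05, grey points did not, and black lines are list medians. The median of the 5 mitophagy genes is 1.05, and those of the other lists run from -0.23 to 0.32.

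Signs of RNA quality and markers of other cell types are set beside these results. The 3′ minus 5′ log2 difference of the ACTB control probe sets, a sign of RNA degradation, was 1.94, 1.86 and 1.64 in bevacizumab tumours and 1.14, 1.33 and 1.66 in control tumours, with groups that overlapped (exact permutation p = 0.2). The same difference for GAPDH lay near 0 on every array, at a mean of -0.021 ± 0.034 in bevacizumab tumours and -0.116 ± 0.017 in control tumours (SD, n = 3 each, exact permutation p = 0.1, the smallest possible). The mean 18S signal was 8.20 ± 1.10 in bevacizumab tumours and 9.13 ± 0.85 in control tumours on the log2 scale (SD, n = 3 each, exact permutation p = 0.2). When the fit held the ACTB difference as a covariate, the log2 fold changes were 1.30 for BNIP3 (limma adjusted p = 0.112), 1.19 for BNIP3L (adjusted p = 0.0675), 0.83 for FAM162A (adjusted p = 0.188), 0.99 for PINK1 (adjusted p = 0.139) and -0.047 for FUNDC1 (adjusted p = 0.864), so all 4 calls were lost, and 24 genes passed in all. Among the controls the ACTB difference was lowest in control 1 and highest in control 3, as were BNIP3, BNIP3L and FAM162A. Among the bevacizumab arrays it was lowest in bevacizumab 3, where BNIP3, BNIP3L, FAM162A and PINK1 were highest. Without the filter on dim genes, BNIP3 (adjusted p = 0.0637), FAM162A (adjusted p = 0.101) and PINK1 (adjusted p = 0.146) did not pass either. Of the marker lists, 2 of 7 mural cell genes fell, beside 9.97% called lower over all tested genes. They were RGS5, by 2.85 (limma adjusted p = 0.00219), and ACTA2, by 1.79 (adjusted p = 0.00407). The other 5 did not pass, with differences of 0.30 for PDGFRB, 0.16 for CSPG4, 0.42 for MCAM, -0.51 for NOTCH3 and -0.76 for ABCC9. The summed mural level on the log2 scale, over all 7 genes, was 11.81 to 12.05 in bevacizumab tumours and 13.06 to 13.41 in control tumours. Values were summed unlogged, so the sum mostly follows ACTA2, the brightest of the 7 (mean 10.97 in bevacizumab and 12.76 in control tumours). It does not show a fall of the list as a whole. The part of these markers in the results was not tested. The hosts were mice and the probes human, so these lists were not read as a measure of host mural, endothelial, macrophage or fibroblast cells. Whether the signal came from the human tumour cells or from mouse RNA was not tested either. In bulk tumours fewer cells of a type and less RNA per cell cannot be told apart. Of 7 endothelial and 6 macrophage markers with a probe set, 5 each were under 4 on all arrays, and the remaining endothelial pair and AIF1 did not pass. Of 7 fibroblast markers 1, COL3A1, fell, beside the same 9.97% of all tested genes. Of the 9 glioma markers, of which 5 were tested, 1 rose and 1 fell, beside 9.09% and 9.97% of all tested genes. CHI3L1, a secreted glycoprotein, averaged 12.63 in bevacizumab tumours and 11.03 in control tumours and rose 3.03-fold (limma adjusted p = 0.0174), and the intermediate filament gene NES averaged 9.68 in bevacizumab tumours and 10.86 in control tumours and fell by 1.18 (adjusted p = 0.00725). The bright markers VIM (15.17 in bevacizumab tumours and 15.05 in control tumours) and CD44 (14.06 and 13.95) did not pass, nor did FABP7 (1.02, adjusted p = 0.0634). SOX2 was too dim to test, while GFAP, S100B and OLIG2 were at or next to the table's lowest value in both groups, so these 3 glial markers were not measurable in either group. With the ACTB covariate no marker call was held (limma adjusted p = 0.0589 for RGS5, 0.0547 for ACTA2, 0.222 for COL3A1, 0.176 for CHI3L1 and 0.0962 for NES). CHI3L1 (adjusted p = 0.101) and COL3A1 (adjusted p = 0.118) also lost theirs without the filter on dim genes.

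**Figure D4:**
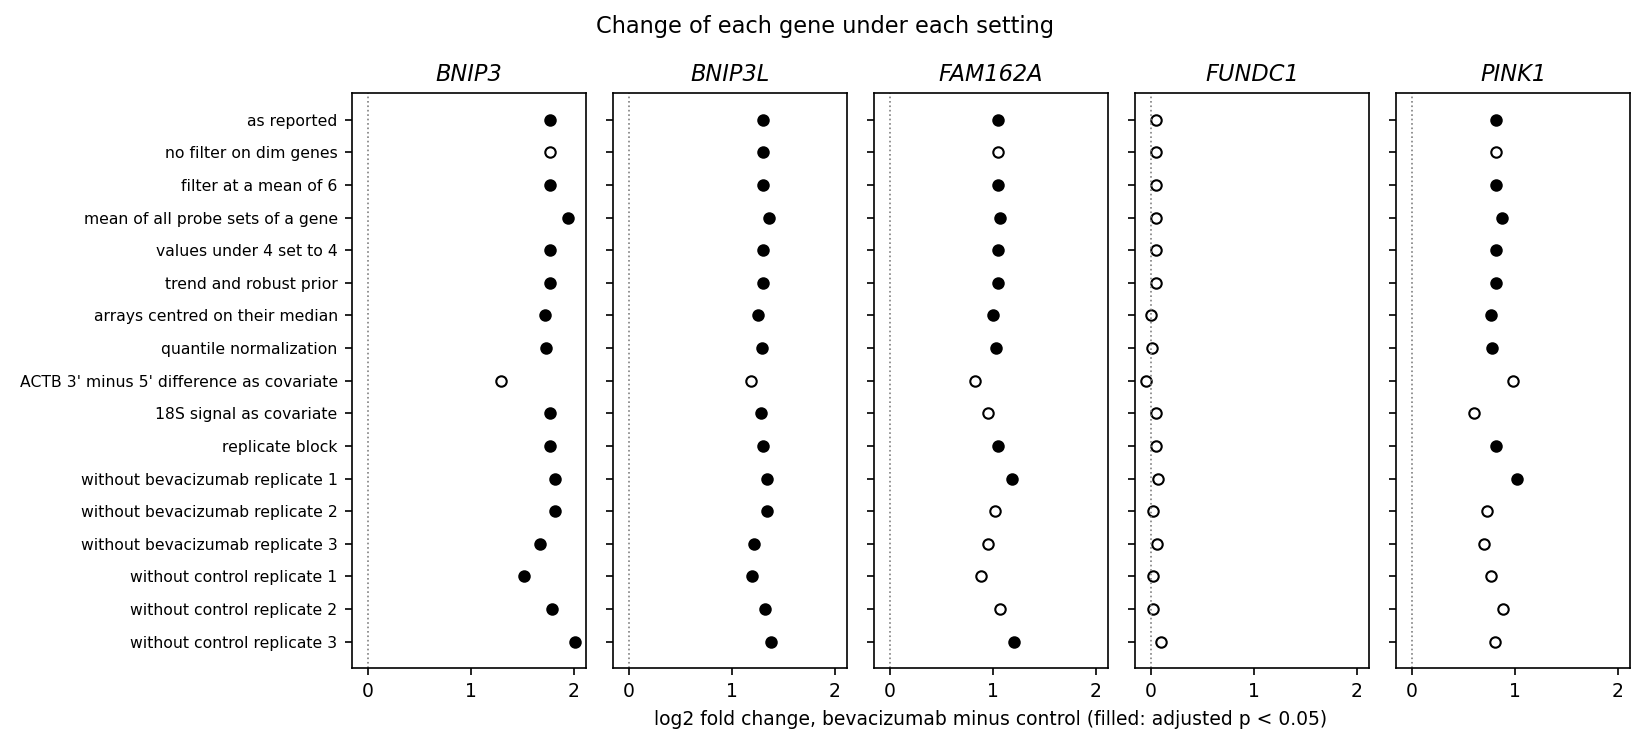
Log2 fold change, bevacizumab minus control (x axis), of each of the 5 genes (panels) as reported and under 16 other settings (rows); filled points passed an adjusted p of 0.05. BNIP3L is filled in all rows but that of the ACTB covariate, and FUNDC1 in none.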

How the data were processed

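RNA of 6 xenograft samples was measured on 1-colour Affymetrix arrays, 1 per sample. Per the submitters' processing notes, the authors used GCOS 1.1.1.052 and GCRMA; the deposited values are on a log2 scale, inferred from their range (2.23 to 15.99). They were used as deposited, and scan dates were not used here. Probe sets with 1 gene symbol (41091) were named through the platform annotation and RefSeq gene identifiers, which matched 41037. The probe set with the highest mean stood for its gene, and genes with a mean of at least 4 were tested (10233 of 19775). The test was limma 3.58.1 (R 4.3.3), two-sided, with Benjamini-Hochberg adjustment over all genes tested (or all probe sets), and an adjusted p under 0.05 counts as called. Changes are bevacizumab minus control. The procedure was checked on data simulated with independent noise. Those data held no effect shared by the genes of an array, so the check does not cover one. Mouse RNA was not separated, and the number of arrays limits the precision.

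The members, lists and tests were chosen with earlier results of these data known. Named list genes were up to 4 called genes with the smallest p and up to 2 others with the largest difference per list, with HIF1A and EPAS1 always named; the 3 nearest genes of each member were also named. The alternatives changed the filter, the probe set rule, dim values, the variance prior, the scaling, covariates, the replicate block and the arrays included. Promoters came from RefSeq (GRCh38.p14), in which 3 of the 5 members were used here.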

Additional observations from a re-analysis of the deposited data

How the results depend on the processing

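BNIP3, BNIP3L, FAM162A and PINK1 were higher after bevacizumab under all 16 alternatives. BNIP3L passed the threshold in 15 of them, BNIP3 in 14, FAM162A in 9 and PINK1 in 8, and FUNDC1 in none. With 1 array left out, the log2 fold change was 1.51 to 2.01 for BNIP3 (adjusted p = 0.0147 to 0.0484), 1.20 to 1.38 for BNIP3L, 0.88 to 1.20 for FAM162A (adjusted p = 0.0225 to 0.0695), 0.70 to 1.02 for PINK1 (adjusted p = 0.00881 to 0.114) and 0.02 to 0.10 for FUNDC1. Without the filter on dim genes, which adds genes whose values sit at or near the table's lowest value, the calls of BNIP3 (1.77, adjusted p = 0.0637), FAM162A (1.05, 0.101) and PINK1 (0.82, 0.146) were lost. With the ACTB 3′ minus 5′ difference as a covariate, no call of the 5 genes was left (BNIP3 1.30, BNIP3L 1.19, FAM162A 0.83, PINK1 0.99), and FUNDC1 turned to -0.047. With the 18S signal as a covariate, FAM162A (0.95, adjusted p = 0.0746) and PINK1 (0.60, adjusted p = 0.0741) lost theirs. The cause of these losses was not tested. The count of 1950 genes past the threshold was 598 without the filter, 24 with the ACTB covariate, 693 with the 18S signal and 558 to 2074 with 1 array left out; that of 2851 probe sets was 611 without the filter. The labels number the arrays 1 to 3 in each group, but same-numbered arrays did not deviate together (r = -0.05, -0.01 and -0.05 over 10233 genes). With the replicate block 904 genes passed, and the members kept their side of the threshold (BNIP3 adjusted p = 0.0156, PINK1 0.0477). The 2 rescalings moved the median over all genes to -0.06 and -0.05.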
